A study of Mus musculus with 9 samples.

Results

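The 10 genes described here encode enzymes that build fatty acids from acetyl-CoA and then lengthen and desaturate them. They were chosen by symbol, by a rule that uses no measured value, though with earlier results of these data known: Acly, Acss2, Acaca, Fasn, Elovl5, Elovl6, Scd1, Scd2, Fads1 and Fads2. All 10 were found among the 23358 entries of the deposited count table, and all 10 passed the filter on low counts, which left 13240 genes tested. RNA was sequenced from mesenchymal stem cells, multipotent stromal cells taken from adult mouse marrow (C57BL/6 background, passages 4 to 10). The cells stood in osteogenic medium with ascorbic acid and β-glycerophosphate and were lysed on day 4. The series compared 3 groups of 3 biological replicates each. Controls (siCTL) received a non-targeting siRNA. The GSK126 group received that siRNA and 5 µM GSK126, an inhibitor of Ezh2, the enzyme that methylates lysine 27 of histone H3. In the siBcat group an siRNA depleted beta-catenin, encoded by Ctnnb1, a partner of cadherins and the carrier of canonical Wnt signals. By title and count column the siBcat samples had no inhibitor, but their treatment label also names 5 µM GSK126; the groups here follow the titles. Nothing in the labels ties a replicate to an animal, and the medium and the transfection were common to all groups.

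Cells make fatty acids in the cytosol from acetyl-CoA, which ATP citrate lyase (Acly) splits from citrate and acetyl-CoA synthetase (Acss2) makes from acetate. Acetyl-CoA carboxylase (Acaca) turns it into malonyl-CoA, and fatty acid synthase (Fasn) joins these units into palmitate. In the endoplasmic reticulum, elongases lengthen the chain: Elovl6 acts on saturated and monounsaturated chains, and Elovl5 mainly on polyunsaturated ones. Stearoyl-CoA desaturases (Scd1, Scd2) put the double bond into monounsaturated fatty acids. The desaturases Fads1 and Fads2 add the double bonds of long polyunsaturated fatty acids such as arachidonate. Many of these genes are known targets of the transcription factor SREBP-1 (gene Srebf1), and the marrow stromal cell can become an adipocyte, which makes and stores fat, or an osteoblast.

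The genes lie at the following places of GRCm38 (GENCODE M21). Acly is on the minus strand of chromosome 11 (chr11:100476353-100528000), as is Fasn (chr11:120805846-120824547), and Acaca is on its plus strand (chr11:84129672-84401651). Acss2 is at chr2:155517948-155585724 on the plus strand. Elovl5 is at chr9:77917364-77984519 and Elovl6 at chr3:129532355-129638495, both on the plus strand. The stearoyl-CoA desaturases are neighbours on chromosome 19, with Scd2 (chr19:44293674-44306864, plus strand) 87.6 kb from Scd1 (chr19:44394455-44407879, minus strand). The same chromosome holds Fads2 (chr19:10062765-10101746, minus strand) 81.1 kb from Fads1 (chr19:10182888-10196877, plus strand). Reads of close copies may have been shared out: 4.56% of the 50-base stretches of Scd1 transcripts and 3.97% of those of Scd2 also occur in another gene, as do 30.4% of those of Acaca and 3.98% of those of Elovl6. On the opposite strand, Acss2 shares 395 exon bases with Gss, 335 with the antisense gene Acss2os and 197 with Ggt7, and whether counting used strand is not given in the sources used here.

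RefSeq promoter windows (GRCm38.p6, 250 bases before to 50 bases after the start site) were at hand for 7 of the 10 genes. Of these, 4 are shown because their genes differ in how they moved below. Acss2 was higher in both treated groups, Elovl5 was higher in GSK126 and lower in siBcat, Fads2 was higher in both with the larger difference in GSK126, and the call for Fasn depended on the libraries kept, the scaling and the test. Capitals mark the CCAAT box, searched as CCAAT on both strands, so that it reads ATTGG on the opposite strand.
Acss2 promoter, chr2:155517793-155518092, plus strand: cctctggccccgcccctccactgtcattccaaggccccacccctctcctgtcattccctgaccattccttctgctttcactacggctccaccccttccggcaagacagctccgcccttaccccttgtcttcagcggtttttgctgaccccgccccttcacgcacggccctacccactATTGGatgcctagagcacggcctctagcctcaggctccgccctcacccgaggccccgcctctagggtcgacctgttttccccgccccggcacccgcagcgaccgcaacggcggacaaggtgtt
Elovl5 promoter, chr9:77917115-77917414, plus strand: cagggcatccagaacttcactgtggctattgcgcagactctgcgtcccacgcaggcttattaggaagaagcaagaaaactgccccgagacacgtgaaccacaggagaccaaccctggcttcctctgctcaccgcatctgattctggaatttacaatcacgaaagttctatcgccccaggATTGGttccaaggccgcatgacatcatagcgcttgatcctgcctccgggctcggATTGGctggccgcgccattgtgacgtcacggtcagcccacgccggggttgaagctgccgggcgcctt
Fads2 promoter, chr19:10101454-10101753, minus strand: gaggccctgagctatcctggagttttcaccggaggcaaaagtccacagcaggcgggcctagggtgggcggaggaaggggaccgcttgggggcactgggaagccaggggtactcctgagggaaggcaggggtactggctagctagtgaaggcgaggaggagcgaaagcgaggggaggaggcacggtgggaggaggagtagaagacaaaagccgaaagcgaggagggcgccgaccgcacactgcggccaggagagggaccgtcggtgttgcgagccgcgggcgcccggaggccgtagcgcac
Fasn promoter, chr11:120824498-120824797, minus strand: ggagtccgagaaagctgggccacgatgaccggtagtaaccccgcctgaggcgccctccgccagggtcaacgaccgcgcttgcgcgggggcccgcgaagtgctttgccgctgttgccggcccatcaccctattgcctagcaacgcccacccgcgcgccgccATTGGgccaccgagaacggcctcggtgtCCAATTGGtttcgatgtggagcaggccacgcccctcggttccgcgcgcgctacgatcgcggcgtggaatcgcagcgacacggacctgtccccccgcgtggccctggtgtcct

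CCAAT was found in 4 of the 7 windows (Acss2, Elovl5, Acly and Fasn) and in 37.4% of all 32851 windows of this length. The Fasn window has 3 matches, 2 of which overlap on opposite strands, and the match of Acss2 begins 73 bases before the start site. The E-box CACGTG occurred in the Elovl5 window alone among the 7, beside 7.15% of all windows. The GC box GGGCGG, also searched on both strands, was in 3 of the 7 (Acss2, Acly and Fads2), beside 35.7% of all windows. The Acaca window (chr11:84195188-84195487), counted among the 7, lies inside the gene span given above, which starts at 84129672. The motif hits are matches of letters and describe the windows only.

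The siRNA target was read as a check of the labels. Ctnnb1 stood at 854.4, 860.1 and 878.9 CPM (counts scaled to a common library total, after TMM scaling) in siCTL, at 925.4, 949.7 and 905.9 in GSK126, and at 19.33, 19.31 and 19.13 in siBcat, 44.9-fold lower than in siCTL. Summed counts ranged from 42324200 to 55898774 per library, at which 3 counts equal 0.053 to 0.073 CPM. This is the limit that a count of 0 allows if each count is a separate fragment. Every count was even, and if both mates of a pair were counted the limit would be higher. Of 8 stromal markers, Pdgfra, Pdgfrb, Cxcl12, Cd44 and Ly6a were present while Thy1 was at 0 in all 9 libraries. Eng was low, with group means of 7.073 to 8.478 CPM, and Nt5e was lower, with group means of 0.8538 to 1.296. Markers of macrophages and other haematopoietic cells summed to at most 2.677 CPM, with Ptprc and Emr1 (now Adgre1) at 0 in all libraries, and endothelial markers to at most 2.144 CPM. GSK126 replicate 3 stood apart by gene length: its genes deviated from the group mean by a median log2 of 0.173 in the shortest 10% of genes and by -0.229 in the longest. The other 2 GSK126 libraries deviated the opposite way, which together they must, since deviations from a group mean cancel. The siCTL and siBcat libraries deviated by no more than 0.022 either way. Where leaving out GSK126 replicate 3 changes a call among the 10 genes or a count in a related list, the value without it is given beside the result. In bulk RNA, a change in the share of cells of a type and a change of RNA per cell cannot be told apart.

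Per length, the stearoyl-CoA desaturases were the most abundant of the 10 in all 3 groups. In siCTL the level per length (RPKM, the count scaled by the deposited coding length and the library total) was 219 ± 5.3 (SD, n = 3) for Scd2 and 119 ± 3.83 for Scd1. Fads1 followed at 78.8 ± 1.09 RPKM, Acly at 64.2 ± 0.657 and Fads2 at 63.1 ± 0.495. Fasn stood at 34.1 ± 2.96 RPKM, Elovl5 at 17.7 ± 1.03 and Acaca at 14.4 ± 0.471. Acss2 and Elovl6 were lowest, at 9.16 ± 0.943 and 9.15 ± 0.322 RPKM, and this was the 1 pair of neighbours in the order whose libraries overlapped. In GSK126 the libraries of Scd2 (311 ± 21.0 RPKM) and Scd1 (280 ± 28.7) overlapped across the group, as did those of Fads1 (103 ± 2.83 RPKM) and Fads2 (93.0 ± 7.37), although within each of the 3 libraries Scd2 was above Scd1 and Fads1 above Fads2. In siBcat Scd2 (236 ± 4.34 RPKM) and Scd1 (109 ± 3.05) did not overlap, and Elovl5 (13.0 ± 0.936) came down into the range of Acss2 (12.3 ± 0.384). The 10 genes summed to between 2980 and 3065 CPM in siCTL, to 4079 or more in each GSK126 library (at most 4816) and to between 3063 and 3171 in siBcat. Scd1 and Scd2 made up 57.8 to 59.3% of that sum in siCTL, 66.5 to 67.7% in GSK126 and 57.5 to 58.3% in siBcat.

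**Figure D1:**
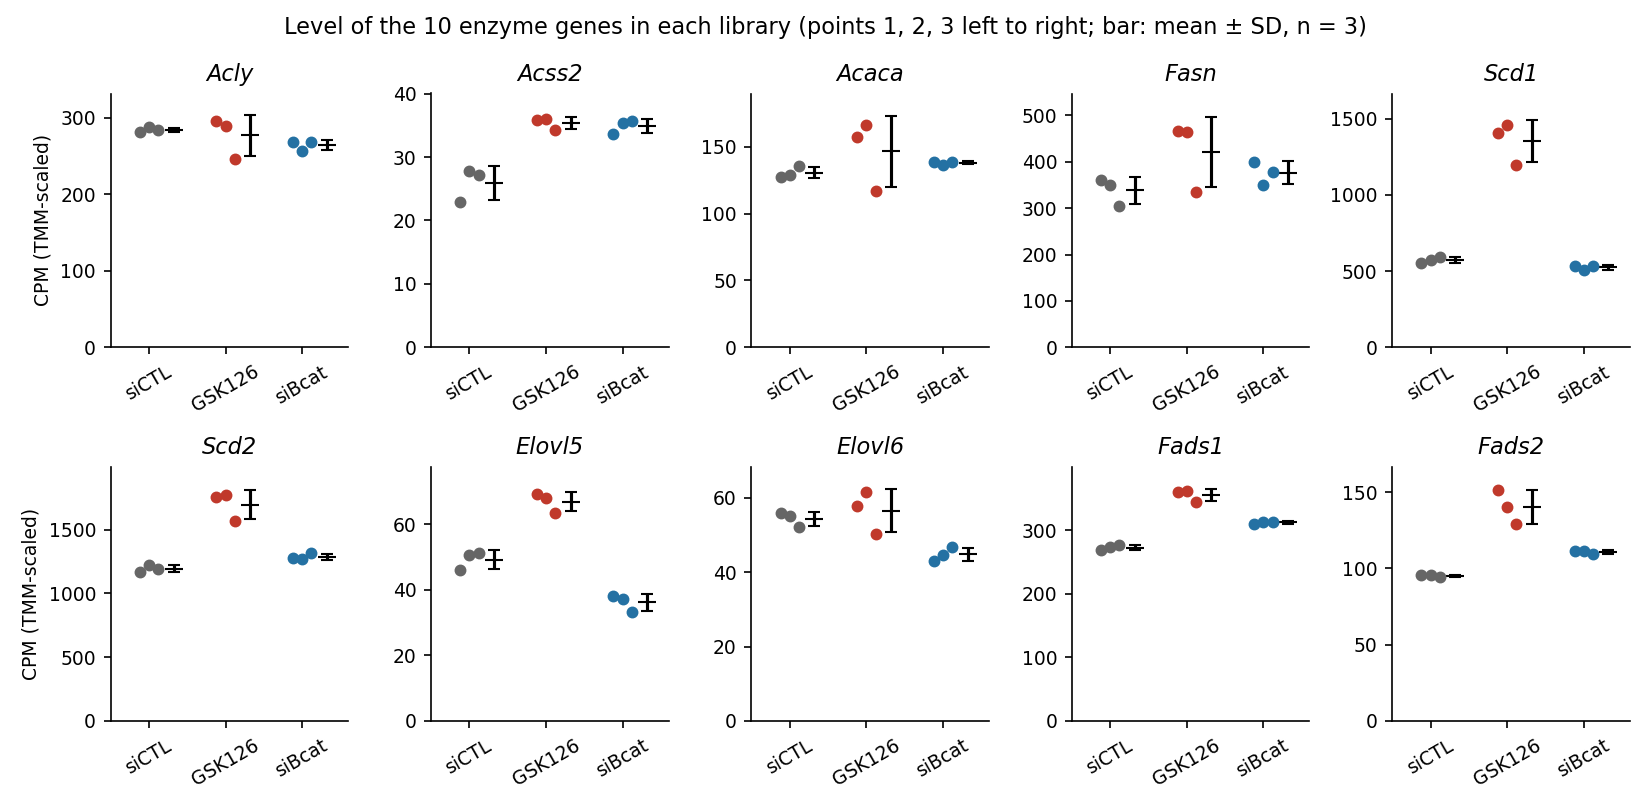
Level of each of the 10 genes in CPM (TMM-scaled, linear axis from 0) in the 9 libraries, with replicates 1 to 3 from left to right and bars for the mean ± SD (n = 3). Scd1 lies between 1196 and 1458 CPM in GSK126, above all siCTL and siBcat libraries, and Elovl5 lies above siCTL in GSK126 and below it in siBcat.

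With GSK126, 6 of the 10 genes rose over siCTL and 0 fell at an adjusted p under 0.05: all 4 desaturase genes (Scd1, Scd2, Fads1 and Fads2), Acss2 and Elovl5. Scd1 rose by far the most, by more than 2-fold, and the others by 1.30- to 1.47-fold. Of all genes tested in this comparison 14.3% rose, 10.7% fell and 25.0% changed in either direction. The median log2 fold change of the 10 genes was 0.41, beside 0.01 over all genes tested. At an unadjusted p under 0.05, 7 rose and 0 fell, and DESeq2 called 7 higher and 0 lower. The 6 calls held in all 19 alternative fits, and in each of the 6 the lowest GSK126 library was above the highest siCTL library. Over all genes tested, the libraries of the groups lay apart for 42.1%.

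Among the stearoyl-CoA desaturases, Scd1 was at 554.8, 573.1 and 591.8 CPM in siCTL and at 1408, 1458 and 1196 in GSK126. The GSK126 libraries were all far above the controls, and replicate 3 was the lowest of them. Scd1 rose 2.36-fold, a log2 fold change of 1.24 (SE 0.07, adjusted p = 1.37e-07), the 250th highest of 13240. Only 2.27% of genes tested rose by more than 1 on this scale. Scd2 was at 1167, 1225 and 1193 CPM in siCTL and at 1754, 1772 and 1565 in GSK126. Here too the groups lay apart, and Scd2 rose 1.42-fold (log2 0.51, SE 0.05, adjusted p = 3.02e-05).

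Both polyunsaturated fatty acid desaturases rose. Fads2, the enzyme of the entry step of that pathway, was at 95.70, 95.56 and 94.34 CPM in siCTL and at 151.3, 140.5 and 129.1 in GSK126. Fads1, which acts later, was at 268.8, 272.9 and 276.3 CPM in siCTL and at 360.7, 361.2 and 344.0 in GSK126. In both genes the controls were tightly grouped and each GSK126 library lay above them. The rise was 1.47-fold for Fads2 (log2 0.56, SE 0.06, adjusted p = 2.16e-05) and 1.30-fold for Fads1 (log2 0.38, SE 0.04, adjusted p = 5.44e-05).

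Of the elongases, Elovl5 passed the test and Elovl6 did not. Elovl5 was at 45.88, 50.56 and 51.10 CPM in siCTL and at 69.07, 68.04 and 63.44 in GSK126, and it rose 1.36-fold (log2 0.44, SE 0.07, adjusted p = 0.000499). Elovl6 was at 55.84, 55.18 and 52.24 CPM in siCTL and at 57.73, 61.60 and 50.25 in GSK126. Its groups overlapped, and its log2 fold change was 0.05 (95% confidence interval -0.10 to 0.21, adjusted p = 0.62).

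Of the acetyl-CoA sources, Acss2 passed the test and Acly did not. Acss2 was at 22.90, 27.81 and 27.16 CPM in siCTL and at 35.86, 36.06 and 34.26 in GSK126, a rise of 1.36-fold (log2 0.45, SE 0.07, adjusted p = 0.000755). Acly was at 281.3, 287.1 and 284.0 CPM in siCTL and at 295.5, 289.4 and 245.9 in GSK126. GSK126 replicates 1 and 2 were just above the controls and replicate 3 was below them. The log2 fold change of Acly was -0.04 (95% confidence interval -0.18 to 0.10, adjusted p = 0.706), and 0.04 without GSK126 replicate 3.

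Fasn and Acaca, the enzymes of the palmitate-building core, did not pass the test. Fasn was at 360.9, 349.7 and 305.3 CPM in siCTL and at 466.3, 463.9 and 334.6 in GSK126. Acaca was at 127.5, 128.6 and 135.3 CPM in siCTL and at 157.1, 166.0 and 116.6 in GSK126. In both genes replicates 1 and 2 were above all controls, while replicate 3 fell within the controls' range for Fasn and below it for Acaca. The log2 fold change was 0.32 for Fasn (95% confidence interval 0.05 to 0.58, adjusted p = 0.0814) and 0.17 for Acaca (-0.06 to 0.39, adjusted p = 0.258). Without GSK126 replicate 3 both were called, Fasn at 0.46 (adjusted p = 0.00588) and Acaca at 0.31 (adjusted p = 3.73e-06), and 8 of the 10 genes were higher. Where the trend on gene length was removed from each library, they were called at 0.50 (adjusted p = 3.81e-05) and 0.33 (adjusted p = 1.06e-05), Elovl6 was called at 0.15 (adjusted p = 0.0334), and 9 of 10 were higher. With all libraries kept, Fasn was also called with upper quartile factors (adjusted p = 0.0295), with library size only (0.0267) and by DESeq2 (0.0351). Over its alternatives the adjusted p of Fasn ran from 3.81e-05 to 0.251.

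GSK126 replicate 3 was the lowest of its group for 10 of the 10 genes, beside 43.5% of all genes tested. Relative to the siCTL mean, Acss2 (coding length 2833 bases) was higher by 0.47, 0.48 and 0.41 (log2) in the 3 libraries, Fads1 (3458 bases) by 0.40, 0.41 and 0.34, and the shortest, Fads2 (1508 bases), by 0.67, 0.56 and 0.44. The longest, Fasn (9938 bases), was at 0.47, 0.46 and -0.01, and Acaca (9032 bases) at 0.27, 0.35 and -0.16. The gap between replicate 3 and the other libraries was thus widest in the longest 2 genes.

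**Figure D2:**
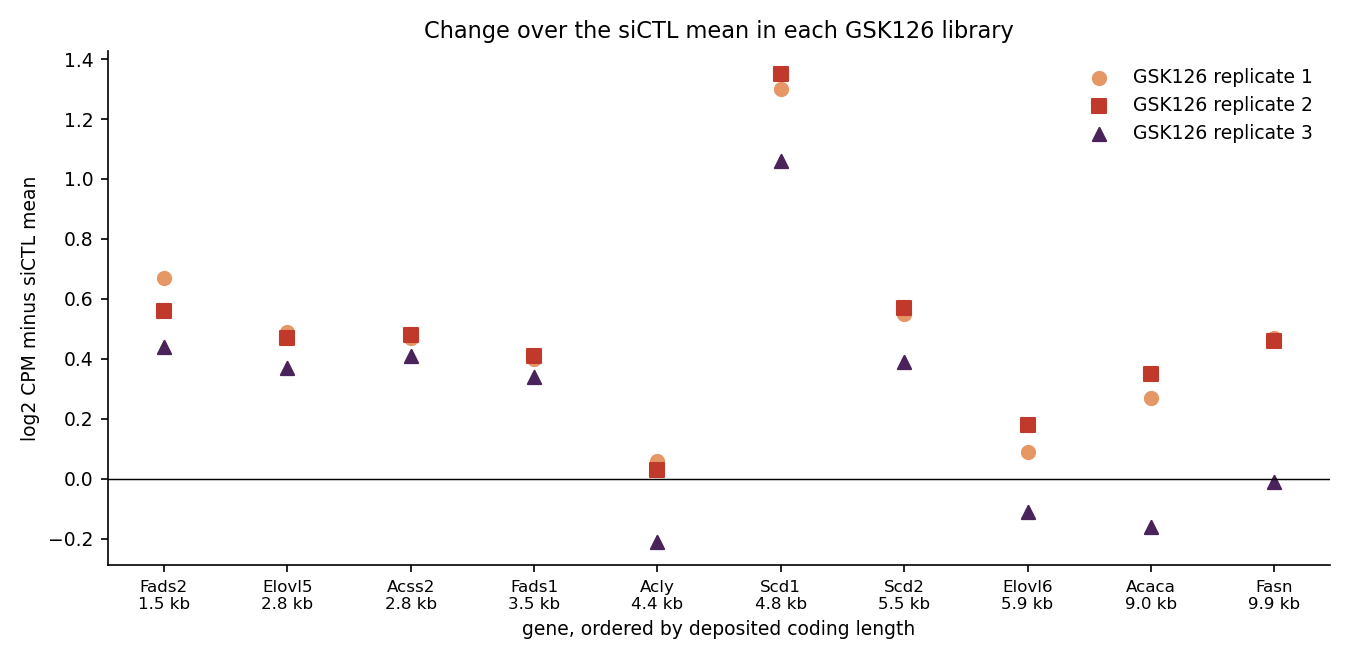
Log2 CPM minus the siCTL mean (vertical axis) for each of the 10 genes in the 3 GSK126 libraries, with genes ordered by the deposited coding length (in kb under each name). Replicate 3 is the lowest point for all 10 genes and is below 0 for Acly, Elovl6, Acaca and Fasn, while Scd1 stays above 1 in all 3 libraries.

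Adipocyte markers moved with this comparison. Of 10 listed, 8 could be tested, and all 8 rose with GSK126, with a median log2 fold change of 1.90. The call for Cebpa (0.25, adjusted p = 0.0175) was lost without siCTL replicate 2 or siCTL replicate 3. The summed level of the adipocyte list was 2042 to 2109 CPM in siCTL and 2507 to 2741 in GSK126. Most of it was Lpl (lipoprotein lipase, with means of 1773 and 2143 CPM). Adipoq (adiponectin) went from a mean of 3.149 to 25.59 CPM and Plin1 (perilipin, the lipid droplet coat) from 0.8464 to 19.01, while Lep (leptin) was at 0 in all 9 libraries and Retn (resistin) at 0 in siCTL and siBcat. Of 5 osteoblast markers 4 were tested, with a list median of 0.58. With GSK126, Alpl (alkaline phosphatase) rose 1.46-fold (adjusted p = 0.00134). Ibsp (bone sialoprotein) rose 4.48-fold (adjusted p = 0.00169), from a low mean of 0.1887 CPM to 0.8593. Sp7 was not called (log2 0.61, adjusted p = 0.185). Runx2 went the other way, with all GSK126 libraries below all controls (log2 -0.18, adjusted p = 0.1), and was called lower without GSK126 replicate 2. The summed level of this list was 89.74 to 95.32 CPM in siCTL and 76.9 to 94.22 in GSK126. Most of it was Runx2 (means of 83.31 and 73.32 CPM), so the sum says little of the genes that rose. Of 7 stromal markers tested 2 rose and 2 fell: Cxcl12, a chemokine, rose 2.13-fold (adjusted p = 1.94e-08) and Ly6a 1.30-fold (adjusted p = 0.00503), while the receptors Pdgfra and Pdgfrb fell by 0.59 and 0.36 (log2, adjusted p = 3.09e-05 and 0.00162). The stromal sum was 4957 to 5020 CPM in siCTL and 8586 to 9226 in GSK126. Most of it was Cxcl12 (means of 3750 and 8002 CPM), while Pdgfrb, the next most abundant, had means of 813.7 and 633.0. The sum thus mainly follows Cxcl12 and not the list as a whole. The part of cells of these types in the rise of the fatty acid genes was not tested.

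Depletion of beta-catenin went with changes in both directions. With siBcat, Acss2, Fads1 and Fads2 rose over siCTL and Elovl5 and Elovl6 fell. Thus 3 rose and 2 fell, beside 17.7% and 17.5% of all genes tested (35.2% in either direction), and 3 and 2 were also the counts at an unadjusted p under 0.05 and by DESeq2. The median log2 fold change of the 10 genes was 0.09, beside 0.00 over all genes. This comparison shares its siCTL libraries with that of GSK126.

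The fall of the elongases came with libraries that lay apart. Elovl5 was at 38.18, 37.20 and 33.26 CPM in siBcat, all below the 45.88 of the lowest control, and fell 1.36-fold (log2 -0.44, SE 0.07, adjusted p = 0.000319). Elovl6 was at 43.05, 44.57 and 46.74 CPM, all below its controls, and fell 1.21-fold (log2 -0.28, SE 0.07, adjusted p = 0.00973). For Elovl5 the 3 groups thus stood in the order siBcat, siCTL, GSK126, with no overlap between any of them.

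Acss2 was at 33.70, 35.34 and 35.76 CPM in siBcat and rose 1.35-fold (log2 0.43, SE 0.07, adjusted p = 0.000617). These libraries overlapped those of GSK126. Fads1, at 310.0, 313.5 and 313.1 CPM, rose 1.15-fold (log2 0.20, SE 0.04, adjusted p = 0.00433). Fads2, at 111.4, 111.3 and 109.3 CPM, rose 1.16-fold (log2 0.22, SE 0.06, adjusted p = 0.011). Both desaturases lay between the controls and GSK126 without overlap with either. The call for Fads2 was lost without siCTL replicate 2 (adjusted p = 0.0518), without siBcat replicate 1 (0.0524) and with the length trend removed (0.0957), over a range of 4.11e-05 to 0.0957 across alternatives.

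The stearoyl-CoA desaturases were near the controls in siBcat. Scd1 was at 532.9, 508.4 and 534.8 CPM, just below all controls (log2 -0.13, 95% confidence interval -0.27 to 0.02, adjusted p = 0.17). Scd2 was at 1280, 1268 and 1314 CPM, just above all controls (log2 0.11, -0.01 to 0.23, adjusted p = 0.148). Acly was at 267.5, 256.8 and 267.6 CPM, also below all controls (log2 -0.11, -0.25 to 0.03, adjusted p = 0.223). Each of these 3 had groups that lay apart without passing the test, as 55.2% of all genes tested lay apart in this comparison. All 3 were called when GSK126 replicate 3 was left out, a library that enters here through the spread estimated over all groups: Acly at adjusted p = 0.0067, Scd1 at 0.00206 and Scd2 at 0.00356, each at its same log2 fold change, so that 4 genes were higher and 4 lower. Acly, Scd1 and Scd2 were also called when only the 2 groups compared were fitted. Fasn stood at 400.5, 350.9 and 377.6 CPM (log2 0.15, -0.12 to 0.42, adjusted p = 0.363) and overlapped the controls. Acaca stood at 138.5, 136.6 and 138.8 CPM, just above all controls (log2 0.08, -0.15 to 0.31, adjusted p = 0.581). With the length trend removed, Acaca (0.16, adjusted p = 0.00554), Fasn (0.23, adjusted p = 0.00722) and Scd2 (0.17, adjusted p = 0.000616) were called higher.

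Adipocyte markers went the other way in siBcat: 5 of the 8 tested fell and Pparg alone rose, with a median log2 fold change of -0.61. Their summed level was 1326 to 1415 CPM, under that of siCTL, with means of 1142 for Lpl, 25.94 for Fabp4 (58.82 in siCTL) and 1.035 for Adipoq. The rise of Pparg was lost without siCTL replicate 2 or siBcat replicate 1, and with library size only. The fall of Cidec, at low means of 0.3661 CPM in siCTL and 0.1621 in siBcat, was lost without siBcat replicate 2. Of the 4 osteoblast markers, Runx2 (-0.30, adjusted p = 0.0087) and Alpl (-0.29, adjusted p = 0.0365) fell. The sum was 72.39 to 77.07 CPM, most of it Runx2 (mean 67.47 CPM). Ibsp was not called (-1.09, adjusted p = 0.159). Sp7 went the other way, with all siBcat libraries above all controls (0.72, adjusted p = 0.106). It was called higher without GSK126 replicate 3 and when only the 2 groups compared were fitted. The call for Alpl ended when siCTL replicate 1, siCTL replicate 2, siBcat replicate 2 or siBcat replicate 3 was left out. Of the stromal markers Cd44 (0.85, adjusted p = 2.95e-07) and Ly6a (0.78, adjusted p = 1.34e-05) rose and Cxcl12 (-0.65, adjusted p = 5.58e-07) and Pdgfra (-0.29, adjusted p = 0.00364) fell. The stromal sum was 3810 to 3850 CPM, most of it Cxcl12 (mean 2396 CPM, and 3750 in siCTL). Pdgfrb, the next most abundant, had means of 919.9 CPM in siBcat and 813.7 in siCTL, so the lower sum mainly follows Cxcl12. The part of cells of these types in the fall of Elovl5 and Elovl6 was not tested.

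**Figure D3:**
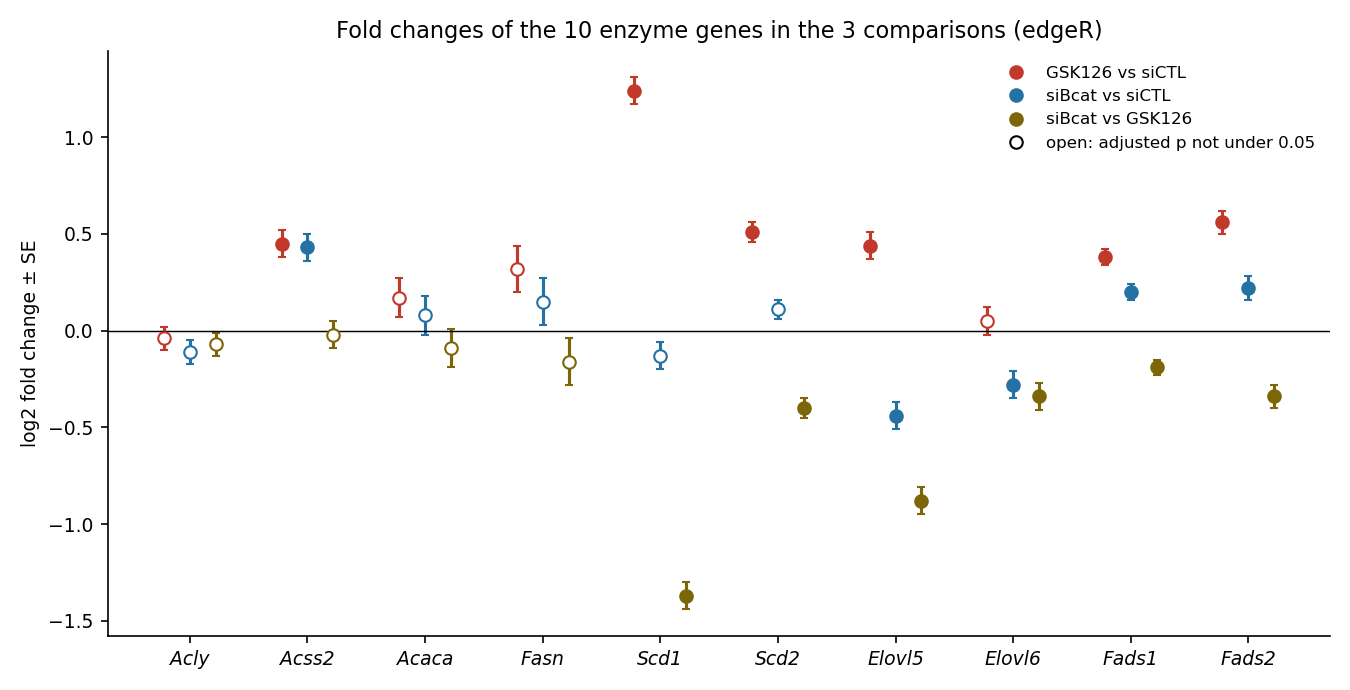
Log2 fold change ± SE (vertical axis) of the 10 genes in the 3 comparisons by edgeR, with filled points where the adjusted p was under 0.05. Scd1 stands out at 1.24 for GSK126 against siCTL, and Elovl5 lies at 0.44 with GSK126 and at -0.44 with siBcat.

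Set directly against each other, siBcat was lower than GSK126 for 6 of the 10 genes and higher for 0, with 6 and 0 also by unadjusted p and by DESeq2. Of all genes tested 21.9% were lower, 19.3% were higher and 41.2% differed in either direction. The median log2 difference of the 10 genes was -0.26, beside -0.01 over all genes. Scd1 differed most, 2.58-fold lower in siBcat (log2 -1.37, SE 0.07, adjusted p = 1.22e-08), followed by Elovl5 at 1.85-fold lower (log2 -0.88, SE 0.07, adjusted p = 6.54e-07). Scd2 was 1.32-fold lower (adjusted p = 8.64e-05), Fads2 1.27-fold (0.000437), Elovl6 1.26-fold (0.0027) and Fads1 1.14-fold (0.0047). Acss2 did not differ beyond its spread, with a log2 difference of -0.02 and a 95% confidence interval of -0.18 to 0.14. Acly (-0.07, -0.21 to 0.07), Acaca (-0.09, -0.31 to 0.14) and Fasn (-0.16, -0.43 to 0.10) overlapped between the groups, while 52.5% of all genes tested did not. Without GSK126 replicate 3, these last 3 were called lower in siBcat, Acly at -0.15 (adjusted p = 0.00124), Acaca at -0.23 (6.88e-05) and Fasn at -0.30 (0.0199), for 9 lower genes in all.

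Within pairs of enzymes that do related work, the share of each in the per-length level was compared between groups. In siCTL, Scd1 made up 34.9, 34.5 and 35.9% of Scd1 and Scd2 together. The GSK126 libraries had shares of 47.5, 48.1 and 46.3%, and those of siBcat 31.9, 31.1 and 31.4%. The share was thus 12.2 points higher in GSK126 and 3.6 points lower in siBcat (35.1 ± 0.688% in siCTL, 47.3 ± 0.938% in GSK126 and 31.5 ± 0.408% in siBcat; SD, n = 3), with no overlap among the 3 groups. Elovl6 made up 34.1 ± 1.98% of Elovl5 and Elovl6 in siCTL, 28.3 ± 1.37% in GSK126 and 36.7 ± 2.65% in siBcat, where it overlapped the controls. Fads1 made up 55.5 ± 0.522% of Fads1 and Fads2 in siCTL, 52.5 ± 1.42% in GSK126 and 55.2 ± 0.36% in siBcat, which again overlapped the controls. Acss2 made up 12.5 ± 1.04% of Acly and Acss2 in siCTL, 16.7 ± 1.03% in GSK126 and 17.1 ± 0.637% in siBcat, where both treated groups lay above the controls and overlapped each other. A two-sided exact permutation test gave p = 0.1, the smallest that 3 libraries against 3 allow, for 9 of the 12 differences, or 0.133 adjusted by Benjamini-Hochberg over the 12. The other differences were those between siBcat and siCTL for Elovl6 (exact p = 0.3) and Fads1 (exact p = 0.5), and between siBcat and GSK126 for Acss2 (exact p = 0.7).

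**Figure D4:**
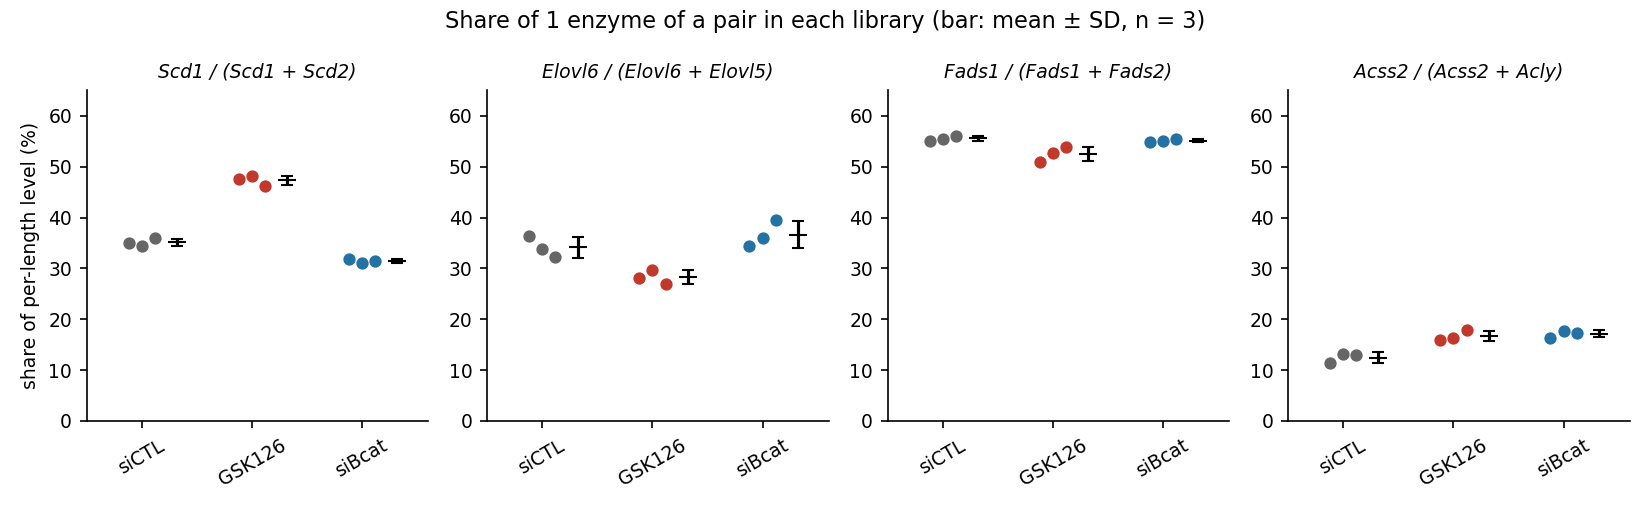
Share (percent of the summed per-length level, axis from 0) of the gene named in each panel within its pair in the 9 libraries, with bars for the mean ± SD (n = 3). The Scd1 share lies between 46.3 and 48.1% in GSK126, above the 34.5 to 35.9% of siCTL and the 31.1 to 31.9% of siBcat.

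Among regulators of these enzymes, Srebf1 followed the split between GSK126 and the other groups. It was at 106.5, 104.2 and 79.36 CPM in siCTL, at 159.9, 156.4 and 156.6 in GSK126 and at 94.33, 92.05 and 93.22 in siBcat. GSK126 libraries were all above the rest, while siBcat lay inside the range of the controls. Srebf1 rose 1.63-fold with GSK126 (log2 0.71, SE 0.09, adjusted p = 0.000117) and had a log2 fold change of -0.05 in siBcat (adjusted p = 0.679). Without siCTL replicate 3, the lowest control, siBcat was called lower for Srebf1 (-0.18, adjusted p = 0.0197). Of the 16 regulators tested, 7 rose and 2 fell with GSK126, with a median of 0.26. Without siCTL replicate 3 they were 4 and 1, without GSK126 replicate 1 they were 4 and 2, without siCTL replicate 1 they were 7 and 1, and without GSK126 replicate 3 they were 6 and 3. They included Insig1, which retains SREBP in the endoplasmic reticulum (log2 0.49, adjusted p = 8.63e-06), and Nr1h3, the liver X receptor alpha (0.34, adjusted p = 0.00414). Prkaa1, a catalytic subunit of AMP-activated kinase, was among those that fell (-0.26, adjusted p = 0.00739). Mlxipl (carbohydrate response element binding protein), named after its value was seen, had the list's highest log2 fold change with GSK126 at 2.43 (SE 0.58, adjusted p = 0.00922), from a mean of 0.1174 CPM to 0.6415. Its control counts were 2, 12 and 2, and over the alternatives its log2 fold change ran from 2.02 to 3.79, the highest being without siCTL replicate 2. In siBcat 2 rose and 4 fell, with a median of -0.02: Scap, the escort of SREBP, rose (0.46, adjusted p = 0.000227), while Mbtps1, the protease that cuts SREBP (-0.33, adjusted p = 0.000235), Nr1h3 (-0.33, adjusted p = 0.0034) and Acacb, the carboxylase at mitochondria (-0.64, adjusted p = 0.00183), fell.

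Genes that supply citrate and NADPH were mixed. With GSK126, 2 of 7 rose and 2 fell (median 0.06; 1 rose on leaving out any 1 siCTL or siBcat library, and 1 fell without siCTL replicate 2 or GSK126 replicate 1 or 2): Slc25a1, the mitochondrial citrate carrier, rose (log2 0.40, adjusted p = 0.000615) and G6pdx, which makes NADPH in the pentose phosphate pathway, fell (-0.21, adjusted p = 0.00904). In siBcat 2 rose and 3 fell (median 0.08; 1 rose on leaving out any 1 siCTL or siBcat library, and 3 without GSK126 replicate 3), with Slc25a1 at 0.31 (adjusted p = 0.00221) and Idh1, the cytosolic isocitrate dehydrogenase, at -0.53 (adjusted p = 2.54e-06). Of the acyl-CoA synthetases, which activate fatty acids, 2 of 6 rose and 2 fell with GSK126 (median 0.05), and 1 rose and 2 fell in siBcat (median -0.08; 0 rose without siCTL replicate 2 or siBcat replicate 3, and 2 without GSK126 replicate 3). Acsl1 rose 1.69-fold with GSK126 (log2 0.76, adjusted p = 6.15e-06) and was at -0.10 in siBcat (adjusted p = 0.284). Acsl4, which prefers arachidonate, fell in both, by 0.29 with GSK126 (adjusted p = 0.00854) and by 0.61 with siBcat (adjusted p = 2.14e-05).

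Of 9 other genes of the elongation cycle, 2 rose with GSK126 and 0 fell (median 0.12). They were Hsd17b12, the ketoacyl reductase of the cycle (log2 0.21, adjusted p = 0.00492), and Ptplb, now Hacd2, a dehydratase (0.29, adjusted p = 0.00253). In siBcat 3 rose and 1 fell (median 0.16), and Hsd17b12 rose by 0.61 (adjusted p = 7.58e-07), opposite to Elovl5 and Elovl6. Without GSK126 replicate 3, 5 rose and 2 fell there, and on leaving out any 1 siCTL library 2 rose. Of 7 other desaturases and their electron carriers, 2 rose with GSK126 (median 0.11) and 3 with siBcat (median -0.01), and 0 fell in either (1 rose with GSK126 without siCTL replicate 1 or 2). They included Fads3, the neighbour of Fads1 and Fads2 in sequence, at 0.21 (adjusted p = 0.00536) and 0.41 (adjusted p = 2.15e-05). In siBcat the call for Cyb5b was lost without siCTL replicate 2, siBcat replicate 1 or siBcat replicate 3. With the length trend removed, Cyb5 was called lower in siBcat (adjusted p = 0.00724) and Cyb5r3 lower with GSK126 (adjusted p = 0.0159). Fatty acid synthesis in mitochondria, a separate pathway, had 2 of 5 genes higher with GSK126 (median 0.12) and 1 with siBcat (median 0.16). With GSK126 the count was 0 on leaving out any 1 siCTL library or with the length trend removed, and 1 without GSK126 replicate 1 or 2. With siBcat it was 0 on leaving out any 1 siCTL library or siBcat replicate 1 or 2. Of 10 genes of fatty acid oxidation, 1 rose and 3 fell with GSK126 (median 0.04; 1 fell without siCTL replicate 1 or 2), among them Acadm, the medium-chain acyl-CoA dehydrogenase (-0.51, adjusted p = 2.82e-05). In siBcat 3 rose and 2 fell (median 0.07; 5 rose without GSK126 replicate 3, and 1 fell without siCTL replicate 3 or siBcat replicate 1 or 2), including Cpt1a, the mitochondrial entry enzyme, at -0.47 (adjusted p = 0.000401).

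Genes of sterol synthesis and uptake are regulated by the SREBP family, as are those of fatty acid synthesis. With GSK126, 22 of 23 rose and 0 fell (median 0.40), including Hmgcs1 of the entry step (log2 0.44, adjusted p = 3.43e-05) and Fdps, the farnesyl diphosphate synthase (0.61, adjusted p = 5.66e-05). In siBcat 17 rose and 1 fell (median 0.30). Hsd17b7 rose by 0.80 (adjusted p = 2.5e-06) and Cyp51 by 0.48 (adjusted p = 3.51e-06); both are sterol enzymes. Over the alternatives, 22 to 23 rose with GSK126 (23 without GSK126 replicate 3) and 13 to 19 with siBcat (19 without GSK126 replicate 3). The 10 fatty acid genes had similar medians to the sterol list with GSK126 (0.41 and 0.40) and lower ones with siBcat (0.09 and 0.30); the difference between the lists was not tested.

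**Figure D5:**
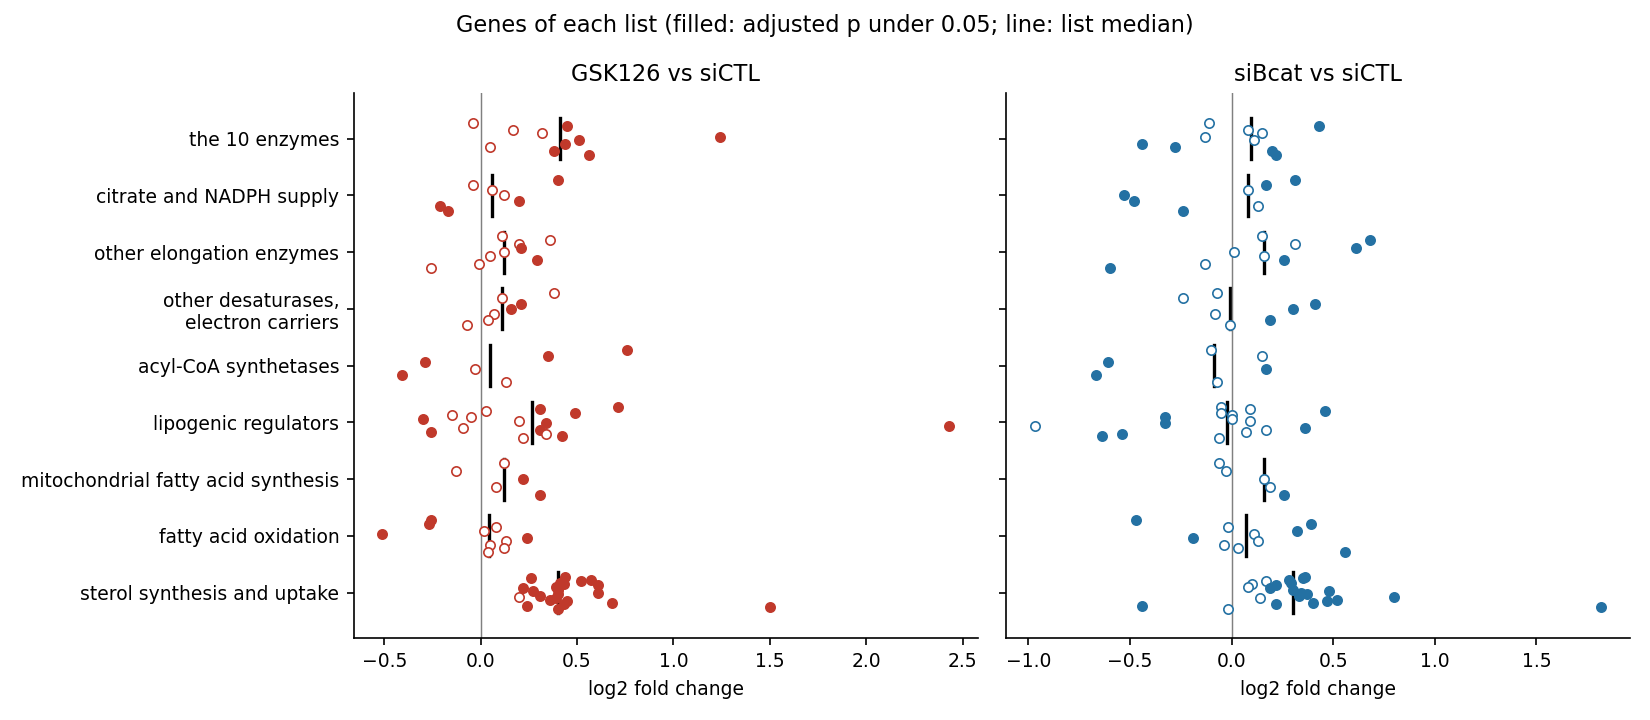
Log2 fold change (horizontal axis) of each gene tested in the 10 enzymes and 8 related lists, for GSK126 against siCTL and siBcat against siCTL, with filled points at an adjusted p under 0.05 and a line at each list's median. With GSK126, 22 of 23 sterol genes are filled and above 0, and with siBcat the 10 enzymes lie on both sides of 0, with 3 rising and 2 falling.

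Over the 9 libraries, the genes most like Scd1 in log2 CPM, among 10888 with a mean of at least 2 CPM, were Bub1b, a spindle checkpoint kinase (Pearson r = 0.997), Acsl1 (0.996) and Plin4, a lipid droplet protein (0.994). Within the 10 enzymes, Scd1 was most like Scd2 (0.952), Elovl5 (0.892) and Fads2 (0.875). For Fasn the most alike were Ankrd13a (0.961), Fhdc1 (0.932) and Stim1, the calcium sensor of the endoplasmic reticulum (0.917), while Acaca had 0.818 and Acly 0.449. The 9 points fall into 3 groups and share library effects, so these values describe the pattern over groups and libraries and carry no test.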

How the data were processed

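Counts per gene from 9 RNA-seq libraries of mouse mesenchymal stem cells, 3 per group, were used. The submitters' processing notes name the tools bcl2fastq, TopHat2 2.0.6 and HTSeq, and the build mm10. Settings and gene models were not given in the sources used here. In the authors' table, as deposited, are raw counts per gene and library, the authors' RPKM and, per the file headers, a coding length in bases. The deposited RPKM served only to recover library totals, of which the summed counts were 89.8 to 90.7%. Every count is even (0 odd values), so mates may have been counted singly. Among 23358 entries, 69 have a name that recurs. Per-sample values of a combined treatment (6 columns) were not used here.

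Samples were grouped by their titles. In R 4.3.3, edgeR 4.0.16 was run with filterByExpr (minimum count 10, minimum total 15), TMM scaling and a robust quasi-likelihood fit over all 9 libraries with group as the only term. Of the genes, 13240 were tested and 10118 filtered out, with a common biological coefficient of variation of 8.12%, 6 residual degrees of freedom and, at the median, 6.61 prior ones. Adjustment was by Benjamini-Hochberg across the 13240 genes, separately per comparison, with 0.05 as the threshold. Levels are CPM after TMM scaling, or RPKM computed from the counts and the deposited length where genes are compared with each other. For log2 CPM of single libraries, 2 prior counts were added. Shares within pairs were compared by exact permutation tests. Shares and figures were made in Python 3.11.15 (numpy 2.4.6, pandas 2.3.3, matplotlib 3.10.9, scipy 1.17.1). The fit was tested on simulated counts.

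The 10 enzymes, the 8 related lists and the 5 marker lists were chosen with earlier results of these data known. Of their 134 genes, 126 were matched by symbol, 7 by an older symbol and 1 was not matched. Named genes were the 10 enzymes, up to 4 genes per related list past the threshold with the smallest adjusted p in a comparison, the siRNA and inhibitor targets, markers, and the 3 genes most like Scd1 and Fasn; values of such a gene are also given for the other comparison. A few genes that this rule names are not reported here. Alternatives were DESeq2 size factors, upper quartile factors or library size only, no filter, a filter at 1 CPM in 3 libraries, DESeq2 1.42.0, only the 2 groups compared, a replicate block, a removed length trend (lowess, span 0.5), halved counts and each library left out in turn, 19 fits per comparison.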

Additional observations from a re-analysis of the deposited data

How the results depend on the processing

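Over the 19 alternative fits, 178 of 190 values of the 10 genes kept direction and side of the threshold for GSK126 against siCTL, 178 of 190 for siBcat against siCTL and 182 of 190 for siBcat against GSK126. With each library left out in turn, the number of genes lower in siBcat than in siCTL ran from 2 to 4. It was also 4 when only the 2 groups compared were fitted, and 5 genes were higher with the length trend removed, against 2 and 3 in the reported fit. Leaving out GSK126 replicate 3 was an alternative for the related lists chosen after the data were seen. Without that library, siBcat against siCTL had 5 other elongation genes higher and 2 lower, 2 acyl-CoA synthetases higher and 5 oxidation genes higher. For siBcat against GSK126, 2 other elongation genes were higher and 2 lower, beside 1 and 1 in the reported fit. In that comparison calls also appeared for Insig2 (regulators), Hadha (oxidation) and Lss (sterol), and ended for the sterol genes Tm7sf2, Ebp and Acat2. The cause of these changes was not tested. Signs turned for 4 uncalled log2 fold changes near 0. With GSK126, Acly was at 0.01 with the length trend removed and at -0.09 to 0.04 with a library left out, and Elovl6 at -0.02 to 0.13. Between siBcat and GSK126, Acss2 was at 0.00 with the length trend removed and at -0.04 to 0.01 with a library left out, and Acaca at -0.23 to 0.02. As shares of counts, not per length, Acss2 rose by 3.01 points with GSK126 and 3.33 with siBcat. With library size only, siBcat against GSK126 gave 1882 higher and 3756 lower genes in place of 2549 and 2901. Replicate numbers did not pair the libraries: deviations of same-numbered libraries correlated at -0.031 to 0.069 over 9 pairs, and 4 of 9 libraries correlated best with their own number. A replicate block gave 7 of the 10 genes higher with GSK126, Fasn being added (adjusted p = 0.0329), and moved the counts over all genes from 1892 higher and 1419 lower to 1786 and 1349; for siBcat against siCTL they moved from 2346 and 2320 to 2278 and 2236.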
